A study of Mus musculus with 4 samples.

Results

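The unfolded protein response regulators described here are 10 mouse genes, chosen by name: Ern1, Ern2, Atf6, Xbp1, Atf4, Ddit3, Creb3l1, Sel1l, Calr and Sdf2l1. All 10 were found among 55203 genes in the deposited tables, where they hold 37 of 141738 transcripts. The series is an RNA-seq measurement of intestinal tissue, made to set beside MERFISH, an imaging method that counts RNA molecules in place, in wild-type adult male C57BL/6NTac mice kept specific-pathogen free (SPF) and aged 8 to 12 weeks. It has 4 libraries in 2 groups of 2. The RVC group was processed with 4 mM ribonucleoside vanadyl complex, an inhibitor of ribonucleases, and the fresh frozen group is labelled only by that name, although 1 protocol text with the RVC rinse accompanies both. Each library has a batch number of its own, so the effects of batch and of group cannot be told apart. Nothing in the labels says that the samples came from separate animals, so the p-values measure only the spread between these samples. Values are given below in the order RVC 1, RVC 2, fresh frozen 1, fresh frozen 2, in FPKM, fragments scaled for transcript length and library size, and a gene's level is the sum over its transcripts.

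The tissue label reads ileum and the protocol reads distal colon. Of 12 ileum marker genes, 6 were listed at 0 in every library, Apoa4 and Fgf15 (named after their values were seen) among them, and the 2 most abundant, Apob and Fabp6, averaged 23.7 and 3.37 FPKM. Of 9 colon marker genes, 8 passed the filter on low values, with Car1 at 1655 FPKM and Slc37a2 at 191 FPKM on average. Relative sequencing depth, read from coverage per FPKM, was 72.6% to 100% of the deepest library, and the authors' confidence bounds lay a median of 16.9% to 19.4% from a transcript's value.

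The unfolded protein response adjusts the folding capacity of the endoplasmic reticulum (ER) to the protein that enters it. IRE1 (Ern1, Ern2), ATF6 and PERK sense unfolded protein in the ER. IRE1 removes a short intron from Xbp1 mRNA and so shifts its reading frame to that of an active transcription factor, ATF6 is cut in the Golgi to free a transcription factor, and PERK slows translation while favouring that of Atf4. Goblet cells, which fill with mucin, and plasma cells, which secrete antibody, are the classical heavy secretors of the gut wall. Plasma cells depend on Xbp1, and the IRE1 form encoded by Ern2 is known from mucus-making epithelium.

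The stretch of Xbp1 that IRE1 acts on is shown because 2 transcripts in the tables differ by it. It is at chr11:5474241-5474342 on the + strand of GRCm39, inside coding exon 4 of Xbp1-201, and the capitals mark the 26 bases present in Xbp1-201 and missing from Xbp1-205.
Xbp1-201, unspliced: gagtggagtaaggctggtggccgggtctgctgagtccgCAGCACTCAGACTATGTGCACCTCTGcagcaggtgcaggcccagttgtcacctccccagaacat
Xbp1-205, spliced: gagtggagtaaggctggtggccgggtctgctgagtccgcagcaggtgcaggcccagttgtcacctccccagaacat
Both ends of the 26 bases lie in a CNGCAGN heptamer, the letters known from the loops that IRE1 cuts (CCGCAGC upstream and CTGCAGC downstream), and the printed stretch holds 3 such heptamers in all. The gap can be placed in 7 ways that give the same spliced sequence, and the annotation puts it 1 base further upstream than shown. The annotated coding sequence has 801 nt in Xbp1-201 and 1113 nt in Xbp1-205.

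All 10 genes were expressed in every library, over a 22.5-fold range of mean levels. Calr was highest at 128 ± 9.86 FPKM (SD, n = 4), followed by Xbp1 at 50.4 ± 4.64, Atf4 at 37.3 ± 4.48, Creb3l1 at 23.1 ± 3.36, Sel1l at 18.9 ± 1.80, Sdf2l1 at 12.9 ± 2.14, Atf6 at 11.5 ± 1.06, Ern2 at 10.7 ± 1.17, Ddit3 at 9.93 ± 3.32 and Ern1 at 5.66 ± 0.309 FPKM. Neighbours whose ranges over the libraries overlapped were Creb3l1 with Sel1l, Sdf2l1 with Atf6, Atf6 with Ern2 and Ern2 with Ddit3, so their order is not resolved. Calr stood at percentile 96.5 and Ern1 at percentile 45.6 of the 13771 genes tested. The coefficient of variation over the libraries ran from 5.46% for Ern1 to 33.4% for Ddit3.

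**Figure D1:**
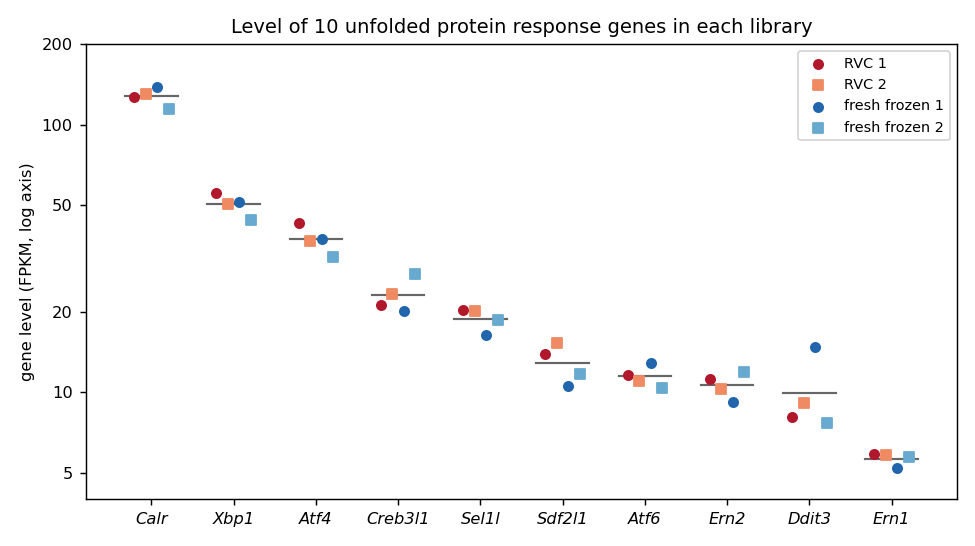
Level of each gene (FPKM, log axis) in the 2 RVC libraries (reds) and the 2 fresh frozen libraries (blues), with the mean over the 4 libraries as a bar. The levels fall from Calr at 128 FPKM to Ern1 at 5.66 FPKM, and Ddit3 has 1 high point, fresh frozen 1.

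No gene of the 10 differed between RVC and fresh frozen tissue past an adjusted p of 0.05 (limma on log2(scaled FPKM + 1), Benjamini-Hochberg over all genes tested). Of all genes tested, 0.0363% did (5 of 13771). At an unadjusted p under 0.05 the count was 1 of the 10, Sdf2l1, against 18.4% of all genes. The groups did not overlap for 4 of the 10 after scaling (3 on the deposited values), RVC being the higher in each, against 53.2% of all genes (26.5% with RVC higher and 26.6% with RVC lower). In all, 7 of the 10 had a fold change above 0, with a median log2 fold change of 0.06 beside 0.01 over all genes, and the 95% interval of each of the 10 lay inside a 2-fold change in either direction. No two-sided permutation test of 2 against 2 libraries can give a p below 0.333.

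Among the sensors, Ern2 was more abundant than Ern1 in every library. Ern1, the IRE1 gene used throughout the body (chromosome 11, 106285476 to 106378678), was at 5.88, 5.82, 5.20 and 5.75 FPKM. Ern2, its epithelial relative (chromosome 7, 121769116 to 121785430), was at 11.2, 10.3, 9.22 and 11.9 FPKM. The ratio of Ern2 to Ern1 was 1.91, 1.77, 1.77 and 2.07 (1.88 ± 0.143, SD, n = 4), with each group holding values near 1.77. The log2 fold change of RVC over fresh frozen was 0.09 (SE 0.13) for Ern1 and 0.04 (SE 0.15) for Ern2 (limma adjusted p = 0.733 and 0.912). Ern2-202, a transcript annotated for nonsense-mediated decay, held 33.3%, 37.5%, 38.5% and 42.8% of the Ern2 sum, so the share in the coding transcript Ern2-201 was 57.2% to 66.7%. Ern2-201 alone was at 7.49, 6.44, 5.68 and 6.80 FPKM. That was above the Ern1 sum in each library, but by less than the ratio of the sums gives.

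Atf6, the membrane-bound factor that moves to the Golgi on stress (chromosome 1, 170532243 to 170695340), was at 11.6, 11.1, 12.9 and 10.4 FPKM. The highest and the lowest value were both fresh frozen, and the log2 fold change was -0.03 (SE 0.13; limma adjusted p = 0.927). At least 97.0% of Atf6 was in the single coding transcript Atf6-201 in each library. Other genes lie inside or across Atf6, Xbp1, Ddit3 and Creb3l1, some on the opposite strand, and whether counting used strand is not given in the sources used here, so reads of these pairs cannot be told apart.

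Of the transcription factors, Xbp1, the target of IRE1 (chromosome 11, 5470659 to 5475893), was the most abundant at 55.3, 50.7, 51.3 and 44.1 FPKM. Fresh frozen 1 lay above RVC 2 on these deposited values, so the groups overlapped, and the log2 fold change was 0.16 (SE 0.12; limma adjusted p = 0.481). Its unspliced transcript Xbp1-201 was nearly level at 38.3, 41.1, 39.9 and 36.3 FPKM. Xbp1-205, the transcript without the capital letters above, was estimated at 9.17, 3.06, 4.57 and 1.94 FPKM, with the authors' bounds at 7.55 to 10.8, 2.09 to 4.04, 3.36 to 5.79 and 1.24 to 2.64. RVC 1 was the highest library and fresh frozen 2 the lowest, and fresh frozen 1 lay above RVC 2, so the groups overlapped. As a share of Xbp1-201 and Xbp1-205 together, the spliced transcript made up 19.3%, 6.93%, 10.3% and 5.07% (10.4% ± 6.32, SD, n = 4). That was a 3.81-fold spread over the libraries, and the RVC pair differed by more than the fresh frozen pair did. The log2 fold change of Xbp1-205 was 0.67 (SE 0.53; limma adjusted p = 0.569 over 24174 transcripts tested).

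Without Xbp1-205 the Xbp1 sum was 46.2, 47.7, 46.7 and 42.2 FPKM, a 1.13-fold spread in place of 1.25-fold. All 1116 nt of Xbp1-205 lie inside the exons of Xbp1-201, so only reads across the 26-base gap, and the ends of fragments, separate them. Of those 1116 nt, 1113 are coding, while Xbp1-201 has 2129 nt with its untranslated ends. Reads from these ends cannot be assigned to Xbp1-205, whether or not their molecule was spliced. TopHat's default minimum intron length is longer than this intron, and whether reads across it were aligned is not given in the sources used here. These estimates are therefore a split of shared reads by likelihood, and are no direct count of spliced molecules.

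**Figure D2:**
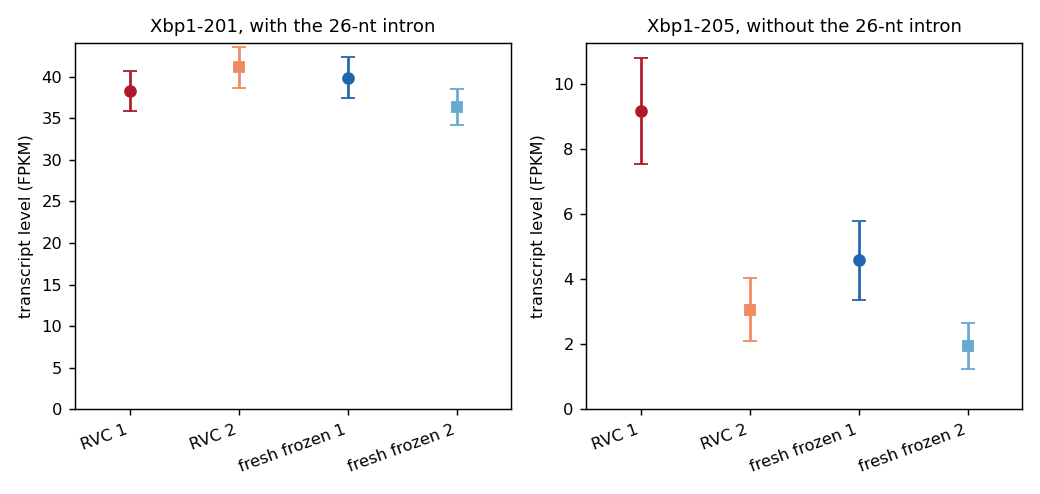
Level (FPKM) of the unspliced transcript Xbp1-201 and of the spliced transcript Xbp1-205 in each library, with bars spanning the authors' confidence bounds and separate axes from 0. Xbp1-201 lies between 36.3 and 41.1 FPKM, while Xbp1-205 runs from 1.94 FPKM in fresh frozen 2 to 9.17 FPKM in RVC 1.

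Atf4, the factor translated when PERK slows other protein synthesis (chromosome 15, 80139385 to 80141742), was at 43.0, 36.9, 37.4 and 32.1 FPKM. Its order over the libraries matched that of Xbp1 on deposited values, with RVC 1 high and fresh frozen 2 low, and the ratio of Xbp1 to Atf4 was 1.29, 1.38, 1.37 and 1.37. The log2 fold change of Atf4 was 0.20 (SE 0.13; limma adjusted p = 0.412). Since this arm acts on translation, mRNA level does not show its output.

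Ddit3, which encodes CHOP, the factor tied to death under lasting ER stress (chromosome 10, 127126643 to 127132157), was at 8.06, 9.14, 14.8 and 7.70 FPKM. The high value in fresh frozen 1 held 7.89 FPKM from Ddit3-220, a 105-nt transcript under a gene ID of its own at the same locus, whose bounds in that library were 0 to 44.6 and which was at or near 0 in the other 3. Without transcripts under 300 nt the values were 8.06, 9.14, 6.93 and 7.70 FPKM, and the log2 fold change went from -0.29 (SE 0.25; limma adjusted p = 0.551) to 0.21 (adjusted p = 0.394). The direction for Ddit3 thus depends on that single short transcript. Its main transcript Ddit3-201 was at 6.36, 7.15, 5.47 and 5.89 FPKM, both RVC libraries being higher, with a log2 fold change of 0.22 (limma adjusted p = 0.471).

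Creb3l1, or OASIS, is a factor cut from the ER membrane like ATF6 and known from secretory cells (chromosome 2, 91812673 to 91854847). It was at 21.2, 23.3, 20.2 and 27.7 FPKM in its 1 listed transcript. Both extremes were fresh frozen, so the groups overlapped, and the log2 fold change was -0.08 (SE 0.16; limma adjusted p = 0.808).

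Among the effectors, Calr, the calcium-binding lectin chaperone calreticulin (chromosome 8, 85568479 to 85573563), was at 127, 131, 138 and 115 FPKM. Both extremes were again fresh frozen, with a log2 fold change of 0.04 (SE 0.12; limma adjusted p = 0.886). Its coding transcript Calr-201 was at 118, 116, 111 and 99.4 FPKM, both RVC libraries being higher (log2 fold change 0.16, limma adjusted p = 0.492). Transcripts with a retained intron held 7.21%, 10.8%, 19.7% and 13.2% of Calr, mostly Calr-204 at 6.94, 12.8, 25.6 and 12.7 FPKM. The high Calr sum in fresh frozen 1 was thus in Calr-204 and not in the coding transcript.

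A promoter sequence (RefSeq, GRCm38.p6, 250 bases before to 50 after the start) was given for 7 of the 10 genes, and 1 of these, that of Calr, held the ER stress response element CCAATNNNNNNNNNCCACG, searched on both strands. The element occurs in 0.119% of 32851 such promoters. It lay from -162 to -144 on the strand opposite to the gene, and it is shown beside the element of Hspa5, the BiP chaperone gene, a standard target; the capitals mark the match.
Calr, chr8:84847060-84847108, + strand: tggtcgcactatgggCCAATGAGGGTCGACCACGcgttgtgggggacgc
Hspa5, chr2:34772010-34772058, + strand: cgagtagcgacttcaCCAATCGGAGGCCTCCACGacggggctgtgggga
Of the 25 ER chaperone and folding genes with a promoter sequence, 7 held the element, in 21.2% of their 33 promoters. The amino acid response letters TGATGNAA, as bound by ATF4 with its partners, were in 31.8% of the 22 promoters of the PERK and ATF4 genes, 3.97% of all promoters and none of the 7 member promoters. These matches describe letters and show no binding.

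Sel1l, the scaffold of the HRD1 complex that sends misfolded proteins out of the ER (chromosome 12, 91772817 to 91815931), was at 20.3, 20.1, 16.4 and 18.6 FPKM. Both RVC libraries were higher, but the log2 fold change of 0.20 (SE 0.12) gave a limma adjusted p of 0.379. The main coding transcript Sel1l-201 went the other way, at 10.2, 10.6, 11.5 and 12.5 FPKM (log2 fold change -0.18, limma adjusted p = 0.499). The higher sum in RVC tissue was in other transcripts. Sel1l-204, a coding transcript, was at 3.51, 2.46, 1.24 and 1.52 FPKM (log2 fold change 0.74, SE 0.20, limma adjusted p = 0.263). Sel1l-205, with a retained intron, was at 1.93, 3.86, 0.593 and 0.792 FPKM (log2 fold change 1.16, SE 0.29, limma adjusted p = 0.251).

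Retained-intron transcripts together held 32.3%, 34.3%, 20.5% and 21.6% of Sel1l. The share was higher in both RVC libraries than in either fresh frozen one. Over all genes with a coding transcript, retained-intron transcripts held 3.85%, 3.76%, 3.66% and 3.97% as a pooled sum. Calr showed the opposite order, its share being lower in both RVC libraries than in either fresh frozen one. Gene by gene, the groups did not overlap in this share for 41.8% of 2552 tested genes whose retained-intron transcripts averaged at least 1 FPKM (23.3% with RVC higher and 18.5% with RVC lower), so such a gap was common.

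**Figure D3:**
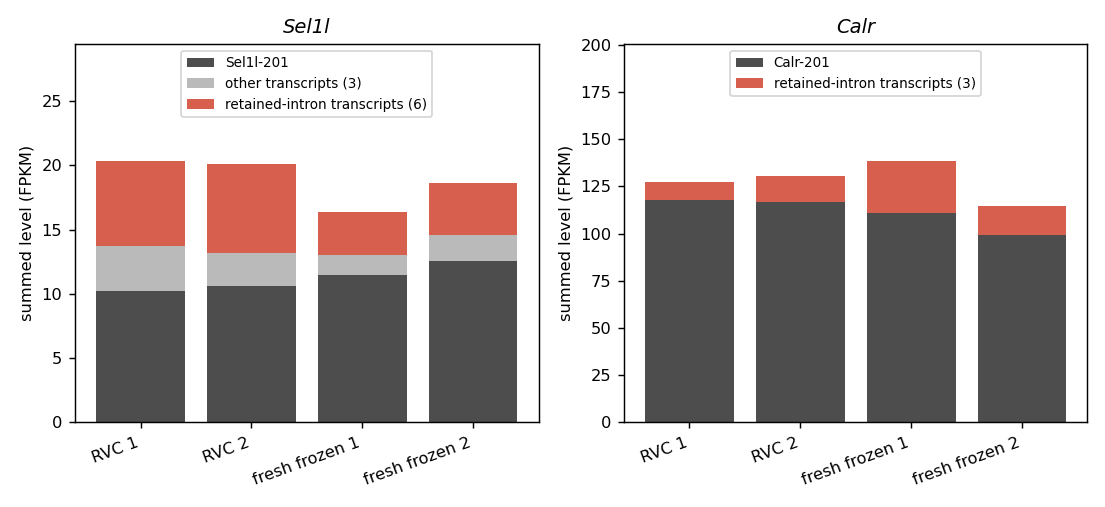
Summed level (FPKM) of Sel1l and of Calr in each library, stacked by the main coding transcript, other transcripts and transcripts with a retained intron. Retained-intron transcripts hold more of Sel1l in RVC 1 and RVC 2 (32.3% and 34.3%) and more of Calr in fresh frozen 1 (19.7%).

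Sdf2l1, an ER-resident partner of BiP and its co-chaperones (chromosome 16, 16948002 to 16950247), had the largest fold change of the 10. It was at 13.9, 15.3, 10.6 and 11.7 FPKM in its 1 listed transcript. Both RVC libraries lay above both fresh frozen ones. The fold change of scaled FPKM + 1 was 1.29 (95% interval 1.06 to 1.57, log2 fold change 0.37, SE 0.12). The unadjusted limma p was 0.0175 and the adjusted p was 0.196, so the difference did not pass the threshold.

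By transcript, 21 of the 37 passed the filter on low values, and 0 of the 21 passed an adjusted p of 0.05 (0.00414% of all transcripts tested did). At an unadjusted limma p under 0.05 there were 3 (Sdf2l1-201, Sel1l-204 and Sel1l-205), against 15.5% of all transcripts. The groups did not overlap for 9 of the 21, 8 with RVC higher and 1, Sel1l-201, with RVC lower, against 50.2% of all transcripts (25.8% with RVC higher and 24.4% with RVC lower).

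The rest of the pathway also had no gene past an adjusted p of 0.05 in limma. As a base for the lists below, 51.0% of all genes tested had a fold change above 0. Of 28 ER chaperones and folding enzymes tested, 8 had a fold change above 0 and 20 below, with a median log2 fold change of -0.10 beside 0.01 over all genes. At an unadjusted p under 0.05, 5 were lower in RVC and 0 higher (all genes: 8.99% lower and 9.38% higher). The most abundant was Agr2, the disulfide isomerase that goblet cells use for mucin, at 518, 611, 709 and 741 FPKM, with both RVC libraries lower (log2 fold change -0.36, limma adjusted p = 0.244). Pdia3 and P4hb, general disulfide isomerases, averaged 121 and 107 FPKM with log2 fold changes of -0.12 and -0.04. The lowest fold changes were those of Dnajc10, a disulfide reductase, and Pdia5 (-0.41 and -0.36), and the highest those of Fkbp2 and Hyou1 (0.26 and 0.19). Hspa5, named for its promoter after its values were seen, was at 114, 102, 106 and 98.5 FPKM (log2 fold change 0.08).

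For translocon and signal peptidase genes, which carry proteins into the ER and trim them, 7 of 23 tested had a fold change above 0 and 16 below, with a median log2 fold change of -0.13. At an unadjusted limma p under 0.05, 7 were lower in RVC and 0 higher (all genes: 8.99% lower and 9.38% higher). Spcs3, a signal peptidase subunit, was at 11.7, 13.2, 19.8 and 18.2 FPKM, and Sec62, a translocation factor, at 14.3, 16.1, 23.7 and 21.7 FPKM. Both RVC libraries were lower for each (log2 fold changes -0.57 and -0.55, limma adjusted p = 0.129 for both). The most abundant, Ssr4, Sec61b and Sec61g, averaged 93.8, 89.3 and 80.5 FPKM with log2 fold changes of -0.02, 0.09 and 0.11. The largest fold change above 0, that of Srprb, was 0.11.

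For ER-associated degradation, the pathway of Sel1l, 20 genes were tested, with 12 fold changes above 0 and a median log2 fold change of 0.02. Vcp, the extracting ATPase, Herpud1 and Aup1 were the most abundant at 49.7, 48.9 and 39.8 FPKM on average. Aup1 was the 1 gene at an unadjusted p under 0.05, with RVC higher, against 9.38% of all genes (log2 fold change 0.27, limma adjusted p = 0.264). Syvn1, the ubiquitin ligase that Sel1l holds, was at 7.55, 5.45, 4.79 and 5.49 FPKM (log2 fold change 0.28), and the lowest fold changes were -0.17 for Edem3 and -0.16 for Herpud2.

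Of 17 PERK and ATF4 genes tested, 11 had a fold change above 0, with a median log2 fold change of 0.07. Ppp1r15b, Ddit4 and Nupr1 were the most abundant at 37.9, 29.6 and 28.9 FPKM on average. Slc3a2, an amino acid transporter chain and ATF4 target, was at 25.7, 23.0, 18.8 and 14.2 FPKM (log2 fold change 0.55, limma adjusted p = 0.154). Ppp1r15a, the phosphatase subunit GADD34 that restores translation, was at 4.15 and 7.68 FPKM in fresh frozen tissue, 7.59 FPKM in RVC 2 and highest in RVC 1 (log2 fold change 0.54), so the groups overlapped. The lowest fold changes were -0.25 for Eif2s1 and -0.19 for Vldlr. Chac1, Slc7a11 and Trib3, stress-induced targets of this arm, each averaged under 1 FPKM and were not tested (named after their values were seen).

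Of 10 genes of the ATF6 and CREB3 family and their proteases, 7 had a fold change above 0. Atf6b, the close relative of Atf6, was at 8.20, 9.72, 5.86 and 6.27 FPKM (log2 fold change 0.50, limma adjusted p = 0.154). Creb3, Mbtps1, which makes the first cut in ATF6, and Nfyc, a subunit of the factor that binds CCAAT, averaged 17.1, 15.5 and 13.1 FPKM. Their log2 fold changes were 0.04, 0.02 and 0.15. Creb3l2 had 0.25, Nfyb -0.24 and Mbtps2 -0.20.

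**Figure D4:**
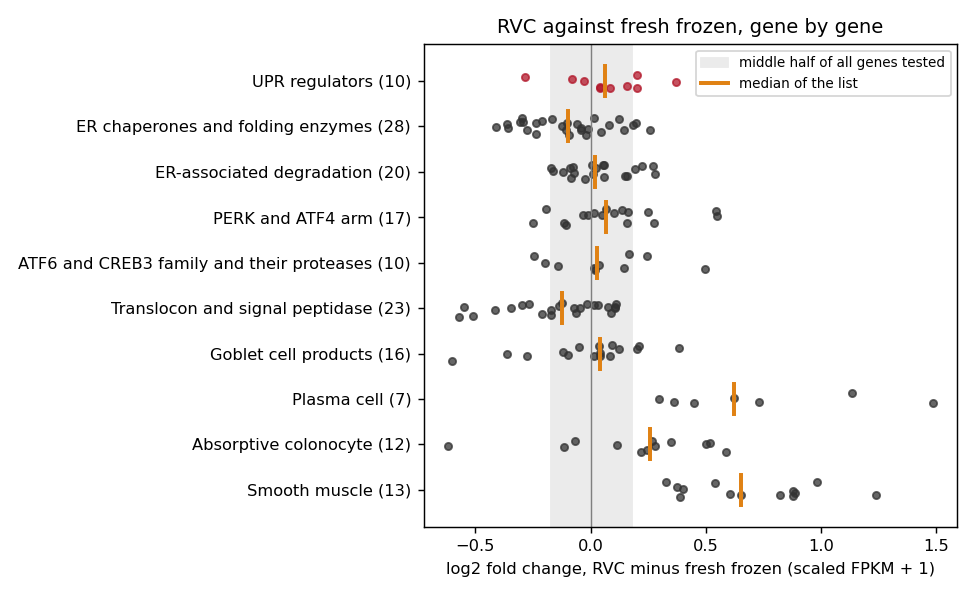
Log2 fold change of RVC over fresh frozen (scaled FPKM + 1) for each tested gene of the lists, with the number tested in brackets, list medians as orange bars and the grey band from the lower to the upper quartile of all genes tested. The medians of the pathway lists lie between -0.13 and 0.07, while those of plasma cell and smooth muscle genes lie at 0.62 and 0.65.

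The secretory load was read from marker lists in the same libraries. In bulk tissue, fewer cells of a type and less RNA per cell cannot be told apart. Summed over 16 goblet cell genes, led by Zg16 and Clca1 (8043 and 2916 FPKM on average), the level was 18316, 14920, 15273 and 17074 FPKM. RVC 1 and fresh frozen 2 were the high libraries, 1 of each group. Summed over 12 plasma cell genes, led by Igkc and Igha, the antibody chains, the level was 1031, 918, 372 and 594 FPKM, with both RVC libraries higher. All 7 plasma cell genes tested had a fold change above 0 (51.0% of all genes did). At an unadjusted limma p under 0.05 there were 4, all with RVC higher (9.38% of all genes), and 0 at an adjusted one. Igkc was at 525, 484, 172 and 307 FPKM and Igha at 291, 244, 66.7 and 134 FPKM (log2 fold changes 1.14 and 1.49, limma adjusted p = 0.131 and 0.129). All 8 B cell genes averaged under 1 FPKM, with Cd79b and Cd79a at 0.709 and 0.536 FPKM.

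Relative to the goblet cell sum the 10 genes together stood at 17.3, 20.99, 20.7 and 16.7 FPKM per 1000 FPKM, a 1.26-fold spread. Relative to the plasma cell sum they stood at 308, 341, 850 and 479 FPKM per 1000 FPKM, a 2.76-fold spread. The sum of the 10 itself was 318, 313, 316 and 285 FPKM, and it varied less over the libraries than the plasma cell sum did. Ern2 per 1000 FPKM of goblet cell genes was 0.614, 0.690, 0.604 and 0.697, a 1.15-fold spread and the narrowest of the 10. Xbp1 per 1000 FPKM of plasma cell genes was 53.6, 55.3, 138 and 74.3, an order set by the plasma cell sum, which varied more than Xbp1.

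Each gene's pattern over the libraries was compared with the mean pattern of each cell list by the root-mean-square distance of centred log2(scaled FPKM + 1) values. With only 4 libraries these distances are descriptions, and they grow with the size of a list's swings, so a gene that varies little lies far from a list that varies much whatever its order over the libraries. Ern2 was nearest to the goblet cell list at 0.08, against 0.35 for the plasma cell list and 0.14 for a flat line. Creb3l1 lay at 0.17 from the goblet cell list and at 0.16 from the enteroendocrine list, close to its 0.18 from a flat line. Xbp1, Atf4 and Sel1l were nearest to the absorptive colonocyte list, at 0.03, 0.05 and 0.12, and Xbp1 lay at 0.23 from the goblet cell list and 0.36 from the plasma cell list. Atf6 and Calr were nearest to the list of ileum genes (0.03 and 0.07), Ddit3 to the list of colon genes (0.24), Sdf2l1 to the endothelial list (0.07) and Ern1 to a flat line (0.07). A near list therefore does not name a cell source. The plasma cell list had the widest range of the cell lists. Its order from high to low was RVC 1, RVC 2, fresh frozen 2 and fresh frozen 1. Sel1l, Ern1 and the endothelial list had the same order. Sdf2l1 differed from it only in which RVC library was higher, and the smooth muscle list had the order of Sdf2l1. A shared order therefore does not name a cell source either.

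**Figure D5:**
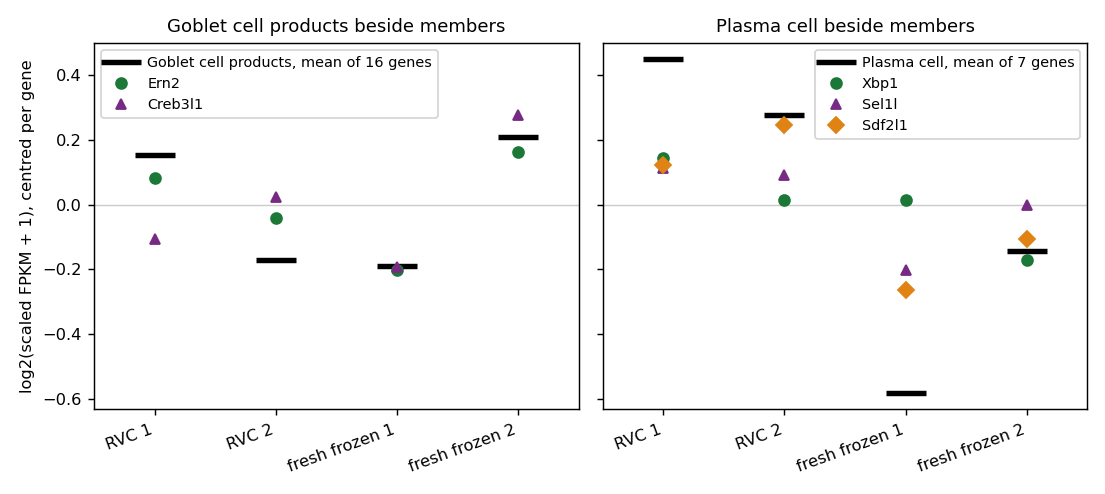
Centred log2(scaled FPKM + 1) in each library of the mean over 16 goblet cell genes (bars) with Ern2 and Creb3l1, and of the mean over 7 plasma cell genes (bars) with Xbp1, Sel1l and Sdf2l1. Ern2 lies at a distance of 0.08 from the goblet cell bars, while the members on the right span less than the plasma cell bars do.

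By the same distance, over 167 list genes with a mean of at least 5 FPKM, the genes nearest to Ern2 were Bcas1 (0.04) and Atoh1 (0.05), both of the goblet cell list, and Nfya (0.07). Bcas1 was at 49.5, 42.2, 39.6 and 50.1 FPKM, and Atoh1, the factor that commits cells to the secretory lineage, at 22.8, 19.2, 17.7 and 21.8 FPKM. Like Ern2, both were lowest in fresh frozen 1. Nearest to Creb3l1 were Galnt12, a mucin glycosyltransferase of the goblet cell list (0.04), Herpud2 (0.10) and Txndc5 (0.10). Galnt12 was at 14.97, 15.5, 13.9 and 18.1 FPKM, with fresh frozen 2 highest and fresh frozen 1 lowest as for Creb3l1. Nearest to Xbp1 were Os9, a lectin of ER-associated degradation (0.03), Srp68 (0.03) and Atf4 (0.04).

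The other cell lists were not tested as lists, and 0 of their genes passed an adjusted limma p of 0.05. All 13 smooth muscle genes, led by Actg2 and Acta2, had a fold change above 0 (51.0% of all genes did). At an unadjusted limma p under 0.05 there were 12, all with RVC higher (9.38% of all genes). The summed levels of these genes were 1471, 2151, 961 and 999 FPKM. The summed level of 10 endothelial genes, led by Pecam1 and Cldn5, was 26.9, 25.4, 13.9 and 16.8 FPKM, and that of 10 macrophage genes, led by Lyz2 and C1qa, 123, 125, 93.1 and 83.4 FPKM. For 12 absorptive colonocyte genes, led by Lypd8 and Saa1, it was 22006, 21235, 19475 and 14717 FPKM, with fresh frozen 2 lowest. Of the members, Xbp1, Atf4, Calr, Atf6 and Ddit3 were also lowest in fresh frozen 2. Creb3l1, Sel1l, Sdf2l1, Ern2 and Ern1 were lowest in fresh frozen 1. The share of all genes lowest in each library was not counted. For the 8 of 10 enteroendocrine genes tested, led by Pyy and Insl5, the median log2 fold change was -0.47, and for 10 fibroblast genes, led by Dcn and Col3a1, it was 0.32. The part of these lists in the values of Sdf2l1, Sel1l, Xbp1 and Atf4 was not tested.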

How the data were processed

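The authors deposited 1 table per library with FPKM for each transcript, their confidence bounds and the coverage signal, in Cufflinks format per the file headers. Alignment used TopHat2 2.1.1 and abundance used Cufflinks 2.2.1 on GRCm39, per the submitters' processing notes, with default settings per the series' design text. Per the labels' protocols, RNA was depleted of ribosomal RNA and sequenced as 150-nt paired reads. The annotation release and strand setting are not given in the sources used here, and no read counts are in these tables, so depth is known only in relative terms.

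Transcript FPKM were summed by gene, the members by gene name and other genes by gene ID. Libraries were scaled by the median ratio to their geometric mean (factors 0.992 to 1.01). Genes with a mean of at least 1 scaled FPKM, a longest transcript of at least 300 nt and a status of OK in all libraries were tested with limma 3.58.1 in R 4.3.3, with a mean-variance trend, on log2(scaled FPKM + 1), which understates changes of low genes. P-values are two-sided and adjusted by Benjamini-Hochberg over all genes, or over all transcripts, at 0.05. The steps were tested on simulated data. Transcript names, types and coordinates come from GENCODE vM39, which held 36 of the 37 transcripts, 23 with the same ends. The members and lists were chosen with earlier results of these data known. Named genes are all members, the 3 most abundant, 2 highest and 2 lowest fold changes of each pathway list, the 2 most abundant of each cell list, and the 3 list genes nearest in pattern to Ern2, Creb3l1 and Xbp1. Outside this rule, Hspa5, Chac1, Slc7a11, Trib3, Apoa4 and Fgf15 were named after their values were seen. Alternatives changed the pseudocount, scaling, filters, summing, block, trend and the libraries used.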

Additional observations from a re-analysis of the deposited data

Results flagged for a closer look

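In 3 of the 55 sets of 4 libraries examined, 1 library lay far from the others by Dixon's criterion at 95%. For a set chosen without regard to its values, chance alone gives such a gap in about 1 in 20. Ddit3-220 did not pass the filter and was put among the sets by name, and many sets share values. The count can therefore not be set against that rate. Ddit3-220 (ENSMUST00000230446) was at 7.89 FPKM in fresh frozen 1 and at or near 0 in the others. Sel1l per 1000 FPKM of goblet cell genes was 1.35 in RVC 2 and 1.07 to 1.11 in the others. Ddit3 per 1000 FPKM of plasma cell genes was 39.9 in fresh frozen 1, the library that holds Ddit3-220 and the lowest plasma cell sum, and 7.81 to 13.0 in the others.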

How the results depend on the processing

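None of the 10 genes and none of their transcripts passed an adjusted p of 0.05 under any alternative run. Over 16 alternatives, the smallest limma adjusted p of a member was 0.146, for Sdf2l1, whose own values ran from 0.146 to 0.513. Of 160 log2 fold changes of members recomputed, 149 kept their sign, and 3 of the 10 genes (Xbp1, Atf4 and Sdf2l1) kept it throughout. Alternatives that changed only a filter, the block or the trend return the main fold change, so they cannot reverse a sign. Removing short transcripts changed the fold change of Ddit3 only. The count of 149 is therefore no measure of how stable the signs are. Signs reversed for Ddit3 without transcripts under 300 nt (0.21), and, when only a gene's top transcript was used, for Ddit3 (0.22), Ern1 (-0.029) and Sel1l (-0.18). Leaving out 1 library in turn gave -0.15 to 0.22 for Ern2 (negative without RVC 1 or fresh frozen 1), -0.16 to 0.099 for Atf6 (positive without RVC 2 or fresh frozen 1), -0.71 to 0.13 for Ddit3 (positive without fresh frozen 1), -0.32 to 0.15 for Creb3l1 (positive without fresh frozen 2) and -0.085 to 0.16 for Calr (negative without fresh frozen 2).

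Over all genes, 5 passed, against 0 with no filter on low values, 2 at a mean of at least 5, 0 with no trend, 0 without transcripts under 300 nt and 1 with each gene's top transcript. Leaving out 1 library gave 8 (without RVC 2) to 40 (without fresh frozen 1), and 29 without RVC 1 and 22 without fresh frozen 2. With 1 library left in a group, that library is assumed to vary like the other group. With the sample number as a replicate block the count was 112, and with the crossed pairing it was 12. The crossed pairing was added after the data were seen, because deviations of same-numbered libraries had a weak negative correlation (r = -0.13 across genes). The labels do not say that numbers mark a shared animal or day. Over all transcripts, 1 passed, against 0 with no filter, 6 at a mean of at least 5, 7 with no length minimum and 0 with any 1 library left out. The unadjusted limma p was under 0.05 for 2530 genes (18.4%) and for 15.5% of transcripts. The causes were not tested.

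The mean levels of the 10 genes moved by less than 1 SD under all 6 alternatives. Leaving out 1 of 4 libraries cannot move a mean that far, so those alternatives do not test the levels. The scaling factors were 0.992 to 1.01, and removing short transcripts changed only Ddit3 (mean 9.93 to 7.96 FPKM). Without its most abundant gene in the list, the sum of the members was 37.2 in place of 18.9 FPKM per 1000 FPKM of goblet cell genes, and 981 in place of 495 per 1000 FPKM of plasma cell genes. Leaving out 1 library gave 18.2 to 19.7 and 376 to 557.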
